A study of Mus musculus with 12 samples.

Results

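CTCF depletion in unstimulated BMDCs was examined by comparing 3 KO with 3 WT RNA-seq libraries, none of which had received LPS. These are 6 of the 12 libraries of the series, chosen by their genotype and treatment labels, and the other 6 are KO and WT BMDCs given LPS at 100 ng/ml for 3 h. BMDCs are dendritic cells grown from mouse bone marrow, here for 6 days with the growth factor GM-CSF. KO BMDCs came from CreER;CTCF fl/fl mice and WT BMDCs from CreER mice, all on the C57BL/6 background. CreER is a Cre recombinase expressed from the Rosa26 locus that 4-OH tamoxifen activates, so deletion of the floxed Ctcf alleles was not limited to a cell type. The drug was given on the first day of culture only. Since neither the labels nor the methods state plainly whether WT cultures received it too, an effect of the drug and one of the deletion cannot be told apart if they did not. Per the methods, mice of both sexes and 8 to 12 weeks of age were used in the study. The 6 libraries compared here, however, held no count of the Y-linked genes Ddx3y, Eif2s3y, Kdm5d or Uty. CD11c+ cells were collected from the cultures with magnetic beads.

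CTCF is a zinc finger protein that binds DNA in an orientation-dependent manner and halts the cohesin complex as it extrudes chromatin loops. The loop anchors formed in this way separate neighbouring domains, bring some enhancers to their promoters and keep others away from genes nearby. CTCF sites close to transcription start sites can also act within the promoter itself. GM-CSF cultures of bone marrow give dendritic cells, whose state the paper describes as monocyte-derived, mixed with cells that resemble macrophages. The process needs both proliferation of progenitors and a myeloid differentiation programme.

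The 6 libraries held 13058792 to 14584606 expected counts each, and 14008 genes passed the filter on low counts. The spread between replicates beyond counting noise (biological coefficient of variation) was 4.92% in WT and 2.62% in KO. The methods describe 3 biological replicates per condition but do not say whether they came from separate mice. If they shared material, this spread would understate that between mice. Dendritic cell markers summed to 10727-11293 TPM in WT and 7411-7735 TPM in KO, and 4 of the 10 were downregulated, whereas Itgax (CD11c) was upregulated. Monocyte markers summed to 255-279 TPM in WT and 604-624 TPM in KO, but of 6 tested 2 rose (Ccr2 and Ly6c2) and 2 fell (F13a1 by 3.84 and Cx3cr1 by 2.72 on the log2 scale). Neutrophil markers summed to 381-402 TPM and 196-228 TPM, and of 9 tested 6 fell and 1 rose. Macrophage markers summed to 516-567 TPM in WT and 644-672 TPM in KO, and of 9 tested 3 rose (Csf1r, C1qa and C1qc) and 3 fell (Adgre1, Mertk and Fcgr1). Megakaryocyte markers summed to 179-190 TPM in WT and 71.1-81.7 TPM in KO, where Pf4 and Ppbp fell and Itga2b, the third tested, was not called. Plasmacytoid dendritic cell markers summed to 203-213 TPM in WT and 170-177 TPM in KO, and eosinophil markers to 51.2-53.2 TPM and 38.1-45.9 TPM, with called members in both directions in each list. Markers of B cells, T and NK cells, erythroid cells, mast cells and stroma summed to at most 7.42 TPM in any library, and Cd3e, Hba-a1, Mcpt4, Ms4a1 and Col1a2 were at or near 0. For comparison, 17.3% of all genes tested were upregulated and 17.2% downregulated at the cutoffs given below, and these marker lists are short. In bulk RNA, fewer cells of a type and less RNA per cell cannot be told apart, and the part of these shifts in the results below was not tested.

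Ctcf (chromosome 8 of mm10) fell in every KO library. Its normalized count was 1051, 987 and 975 in the WT libraries and 569.7, 562 and 516 in the KO libraries. The groups did not overlap, and KO held 54.7% of the WT mean, with a log2 fold change of -0.87 (SE 0.08). The adjusted p was 3.9e-07 by the quasi-likelihood test of edgeR after Benjamini-Hochberg correction. This count covers the gene as a whole, so it does not measure how much intact transcript or protein remained. The paper reports efficient depletion of both, with CTCF binding gone or strongly reduced across its sites. Of all genes tested, 17.2% were downregulated and 17.3% upregulated. Among 19 tested genes of CTCF and the cohesin machinery, 4 were downregulated (21.1%) and 2 upregulated (10.5%). The median log2 fold change of the 19 was -0.14. Cdca5 (sororin, which holds cohesin on sister chromatids, -1.09), Esco2 (a cohesin acetyltransferase of S phase, -0.95) and the cohesin subunit Rad21 (-0.43) were the others that fell. The cohesin subunits Stag1 (0.76) and Smc3 (0.44) rose, though Smc3 was under the fold cutoff without WT replicate 2 (0.36) or 3 (0.37). Nipbl, Wapl, Smc1a and the other 10 members did not pass the call.

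Of the 14008 genes tested, 4832 (34.5%) differed between KO and WT at an adjusted p under 0.05 and a fold change above 1.3. Of these, 2427 (17.3%) were upregulated and 2405 (17.2%) were downregulated, so the directions were nearly balanced. The balance depended on the scale: on log2(TPM + 1), limma called 1556 genes upregulated and 2524 downregulated, and on log2(TPM + 0.1) the median of all genes moved by -0.10 relative to the main fit. The typical change was small, with a median of 1.80-fold among upregulated and 1.76-fold among downregulated genes. A change of at least 4-fold was found for 384 upregulated and 329 downregulated genes, and one of at least 16-fold for 96 and 47. The KO and WT libraries did not overlap for 8997 genes (64.2%), with KO higher for 31.9% and lower for 32.3%.

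**Figure D1:**
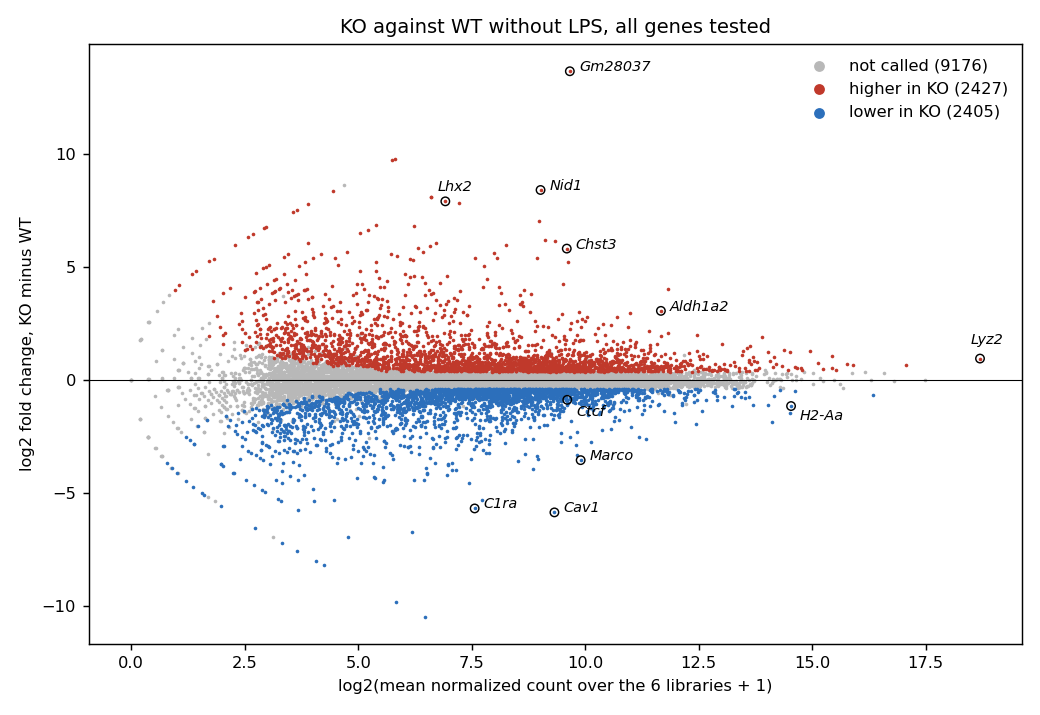
Log2 fold change of KO minus WT (y axis) against log2 of the mean normalized count over the 6 libraries plus 1 (x axis), with a point for each of the 14008 genes tested. Red points are the 2427 upregulated genes, blue the 2405 downregulated genes and grey the 9176 not called; large changes sit at low and middle expression, and Lyz2 is the point farthest to the right.

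Genes that were almost silent in WT BMDCs gave the 12 largest rises among called protein-coding genes averaging at least 100 normalized counts. Nid1, which encodes the basement membrane glycoprotein nidogen-1, counted 1.84, 4.19 and 2.59 in the WT libraries and 1049.7, 1012 and 1027 in the KO libraries. Its KO mean was 358 times its WT mean (log2 fold change 8.41, SE 0.40, adjusted p = 7.9e-10). Lhx2, a LIM homeodomain transcription factor, counted 0.92, 1.68 and 0 in WT and 250.3, 227 and 239.9 in KO. All WT libraries of Lhx2 held at most 3 counts, so its rise was at least 91.1-fold. Ntn1, the axon guidance ligand netrin-1, behaved alike, with 0, 1.68 and 1.73 in WT, 298, 289 and 296 in KO and a rise of at least 112-fold. No KO library of these genes came near a WT library.

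Several of the other large rises concerned enzymes, transporters and secreted factors. Chst3, which sulfates chondroitin, counted 27.6, 23.5 and 29.4 in WT and 1536, 1454 and 1555 in KO (log2 fold change 5.82, SE 0.17). Gstt1, a glutathione transferase, counted 11.02, 9.22 and 9.51 in WT and 512, 466 and 519 in KO (5.64, SE 0.18). Cxcl14, a chemokine, counted 17.5, 20.97 and 29.4 in WT and 962, 894 and 1009 in KO (5.39, SE 0.13). In each the KO libraries lay close together and far above the WT libraries. Scn4b, a sodium channel subunit, counted 14.7, 15.1 and 23.3 in WT and 1244, 1281 and 1274 in KO. The remaining members were Sel1l3, Anks6, Arhgef17, Abcg3 (an ABC transporter) and Rufy4, with log2 fold changes from 5.39 to 7.01. In TPM, which allows for transcript length, Gstt1 (57.5) and Cxcl14 (54.0) were the most abundant of the 12 genes in KO and Ntn1 (4.91) the least.

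The 12 largest falls, chosen in the same way, reached lower extremes. Cav1, the main structural protein of caveolae, counted 1248, 1255 and 1261 in WT and 17.05, 26.9 and 21.3 in KO. KO therefore held 1.73% of the WT mean (log2 fold change -5.85, SE 0.16, adjusted p = 1.0e-11). C1ra, a protease of the classical complement pathway with a near-identical copy in C1rb, counted 334, 379.9 and 393 in WT and 4.49, 10.6 and 6.48 in KO (-5.67, SE 0.24). Since reads may be divided between such copies, its value is uncertain, and C1rb itself was too low to be tested.

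Receptors of macrophages were also among these falls. Marco, a scavenger receptor for bacteria, counted 1721, 1861 and 1685 in WT and 157, 132 and 164 in KO (log2 fold change -3.54, SE 0.11). Siglec1, the sialoadhesin of tissue macrophages, counted 153, 221 and 198 in WT and 12.6, 19.2 and 12.97 in KO (-3.68, SE 0.30). The groups did not overlap, although the WT libraries of Siglec1 were more spread than those of Marco. Hsd3b7, an enzyme of bile acid synthesis from oxysterols, counted 739, 927 and 914 in WT and 51.1, 63.4 and 54.7 in KO (-3.93, SE 0.14), and it overlaps the antisense gene 9430064I24Rik. The others were Rex1bd, Agap2 (a GTPase-activating protein), Fam199x, Rbm45 (an RNA-binding protein), Dhrs4 (a retinol dehydrogenase family member), Tstd3 and Flrt3 (an adhesion protein), with log2 fold changes from -4.55 to -3.57. Tstd3 overlaps Ccnc and Usp45, and Flrt3 lies within Macrod2.

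**Figure D2:**
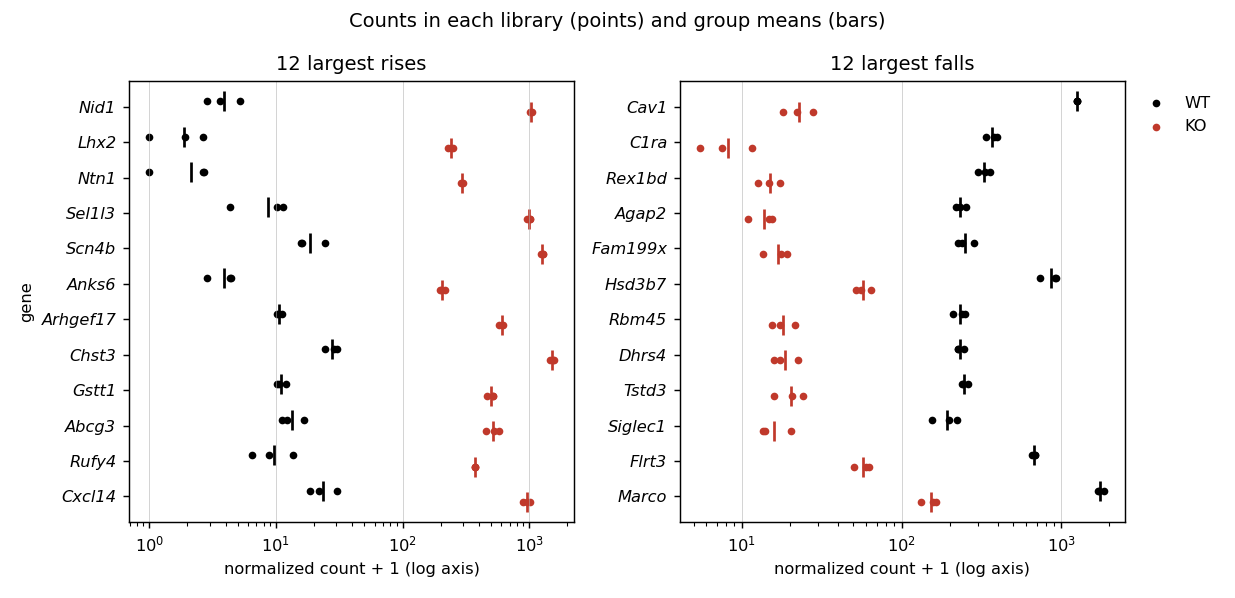
Normalized count plus 1 on a log axis (x axis) of the 12 largest rises and 12 largest falls (y axis), with a point for each of the 3 WT (black) and 3 KO (red) libraries and a vertical bar at each group mean. In all 24 genes the WT and KO libraries are separated, and the spread within a group is small beside the distance between groups.

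A set of 18 genes counted at most 3 in all libraries of a group and averaged at least 50 in the other. Of these, 14 were silent in WT, among them Lhx2, Ntn1, Unc5b (a netrin receptor), Egfl7, Elavl4 (a neuronal RNA-binding protein), Col9a2, Lrfn3 and Tril (an accessory protein of TLR4 signalling). Tril counted 0 in all WT libraries and 112, 103 and 117 in KO, a rise of at least 42.2-fold. Cd207, the C-type lectin langerin, counted 141, 152 and 134 in WT and 2.69, 0 and 0.93 in KO, a fall of at least 51.2-fold. Klrd1 (CD94) was likewise at the floor in KO, with 55.1, 43.6 and 59.6 counts in WT. The other 2 genes silent in KO, the pseudogenes Rpl7a-ps11 and Gm10335, were also at or near 0 in WT replicate 3. Gm28037 went from 0 to 1401-1751 counts, but it overlaps Rpl24 on the same strand, which fell from 5891-6089 to 4123-4640 counts, so the division of reads between them is uncertain. Gm13841 and Gm8210, pseudogenes with identical values in every library, cannot be separated from each other.

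Promoter sequences were examined because CTCF can act at a transcription start. RefSeq promoters (GRCm38.p6, the build of the files, 250 bases before to 50 after the start) were matched by symbol to 18 of these 24 genes. The core motif searched was CC, any 3 bases, AGG, any base and then GGC, read on both strands, and 5 of the 18 promoters held it. In Fam199x, Hsd3b7, Rufy4 and Abcg3 the match lay before the start, and in Lhx2 after it. The 250 bases before the start of the first 4 are shown 5′ to 3′ on the strand of the gene, with the match in capitals, at chrX:137049344-137049593 (plus strand), chr7:127800359-127800608 (plus strand), chr1:74125291-74125540 (plus strand) and chr5:104982718-104982967 (minus strand).
Fam199x: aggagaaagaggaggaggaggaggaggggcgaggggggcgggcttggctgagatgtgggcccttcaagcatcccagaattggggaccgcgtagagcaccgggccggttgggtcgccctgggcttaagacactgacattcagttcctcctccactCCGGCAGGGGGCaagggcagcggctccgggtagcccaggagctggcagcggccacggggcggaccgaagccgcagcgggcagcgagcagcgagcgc
Hsd3b7: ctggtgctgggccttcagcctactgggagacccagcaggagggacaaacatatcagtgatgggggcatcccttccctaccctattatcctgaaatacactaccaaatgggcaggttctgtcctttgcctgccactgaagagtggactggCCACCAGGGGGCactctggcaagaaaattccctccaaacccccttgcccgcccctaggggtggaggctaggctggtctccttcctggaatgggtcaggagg
Rufy4: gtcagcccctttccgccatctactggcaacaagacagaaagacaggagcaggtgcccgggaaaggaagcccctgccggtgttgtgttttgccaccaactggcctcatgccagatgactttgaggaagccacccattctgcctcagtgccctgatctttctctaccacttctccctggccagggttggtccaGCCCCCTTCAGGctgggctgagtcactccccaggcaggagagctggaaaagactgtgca
Abcg3: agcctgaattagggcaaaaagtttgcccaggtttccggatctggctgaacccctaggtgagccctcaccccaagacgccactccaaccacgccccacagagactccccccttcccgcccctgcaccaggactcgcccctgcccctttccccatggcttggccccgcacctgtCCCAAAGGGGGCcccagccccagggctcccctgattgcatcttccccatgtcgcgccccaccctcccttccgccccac
The matches began 96, 101, 59 and 78 bases before the start, and Fam199x and Hsd3b7 fell while Rufy4 and Abcg3 rose. Among all genes tested that had a promoter, 566 of 10113 (5.60%) held the motif, compared with 3.43% of all 32851 promoters in the table. The share was 11.5% (26 of 227) for genes that fell at least 4-fold and 4.78% (12 of 251) for genes that rose at least 4-fold. It was 6.80% for all downregulated and 5.86% for all upregulated genes. Where the RefSeq start lay within 100 bases of the start used here, the shares were 12.7% (23 of 181) and 5.03% (9 of 179). These shares are descriptions of letters in a window and not of occupancy. The median GC content of the promoters was 55.3% for genes that fell at least 4-fold and 64.0% for genes that rose at least 4-fold.

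To describe the changes by function, 35 gene lists were counted against the background of 17.3% upregulated and 17.2% downregulated and against the median log2 fold change of all genes, -0.01. Cell division genes fell nearly as a block. Of 40 mitosis genes, 37 were downregulated and 1 was upregulated, with a median log2 fold change of -0.76. Cdc25b, the phosphatase that activates CDK1, fell most (log2 fold change -1.26), followed by the condensin subunit Ncapg (-1.18) and the checkpoint kinase Bub1 (-1.12). Mki67, the common marker of cycling cells, fell from 5989 ± 179 to 3577 ± 5.21 (SD, n = 3). Incenp, a subunit of the chromosomal passenger complex, was the exception and rose. It counted 1397, 1428 and 1301 in WT and 3362, 3391 and 3514 in KO, whereas its partners Aurkb and Birc5 fell by 0.67 and 0.61 on the log2 scale. Top2a and Nek2 were not called.

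Of 38 DNA replication genes, 24 fell and 2 rose (median -0.54). Rrm2, a subunit of the ribonucleotide reductase, and the licensing factor Cdt1 fell by 1.09 and 1.00 on the log2 scale, whereas the helicase subunit Mcm2 (0.58) and the polymerase alpha subunit Pola2 (0.63) rose. None of 18 G1 cyclins and CDK inhibitors was upregulated, and 6 were downregulated (median -0.20). Ccnd1, cyclin D1, had the largest change of them and counted 355, 387 and 388 in WT and 56.5, 65.3 and 63.0 in KO. Of 28 p53 targets, 8 fell and 2 rose (median -0.07), and Cdkn1a (p21) was among those that fell (-0.42). Trp53 itself (0.51) and Xpc (0.76), a DNA damage sensor, were the members that rose.

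Sterol synthesis genes fell without an exception among those called. Of 35 genes of sterol synthesis and its SREBP regulators, 26 were downregulated and 0 upregulated, with a median of -0.76. They included the enzymes Fdps (-1.43), Cyp51 (-1.37) and Fdft1 (-1.29). Scap, which escorts SREBP proteins to the Golgi, fell by 1.69 and the desaturase Fads2 by 1.78 on the log2 scale. The fatty acid synthesis genes Fasn, Acaca, Acly and Scd1 were not called. In the list for LXR, efflux and lipid uptake, 13 of 28 genes fell and 4 rose (median -0.05). Marco, Angptl4 (a lipase inhibitor, -2.56) and Lpl (lipoprotein lipase, -1.44) fell, as did the receptor Pparg (-1.44). Npc2, a lysosomal cholesterol carrier, rose from 9654 to 17239 counts, and Abca1 and Abcg1 were not called.

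Interferon-stimulated genes were lower without any stimulus. Of 44 tested, 33 were downregulated and 3 upregulated, with a median of -0.81. The antiviral sensor Oas2 counted 108 in WT and 19.5 in KO on average, and Slfn1, Oas2 and Oas3 had log2 fold changes of -2.51, -2.46 and -2.004. Of the transcription factors that drive this programme, Irf1 (-1.32), Stat2 (-1.11), Irf7 (-0.93) and Irf9 (-0.92) fell. Ifih1, the RNA sensor MDA5, rose from 1309 to 2791 counts, and Slfn8 and Gbp3 rose as well. Ifit1, Isg15 and Bst2 were not called.

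**Figure D3:**
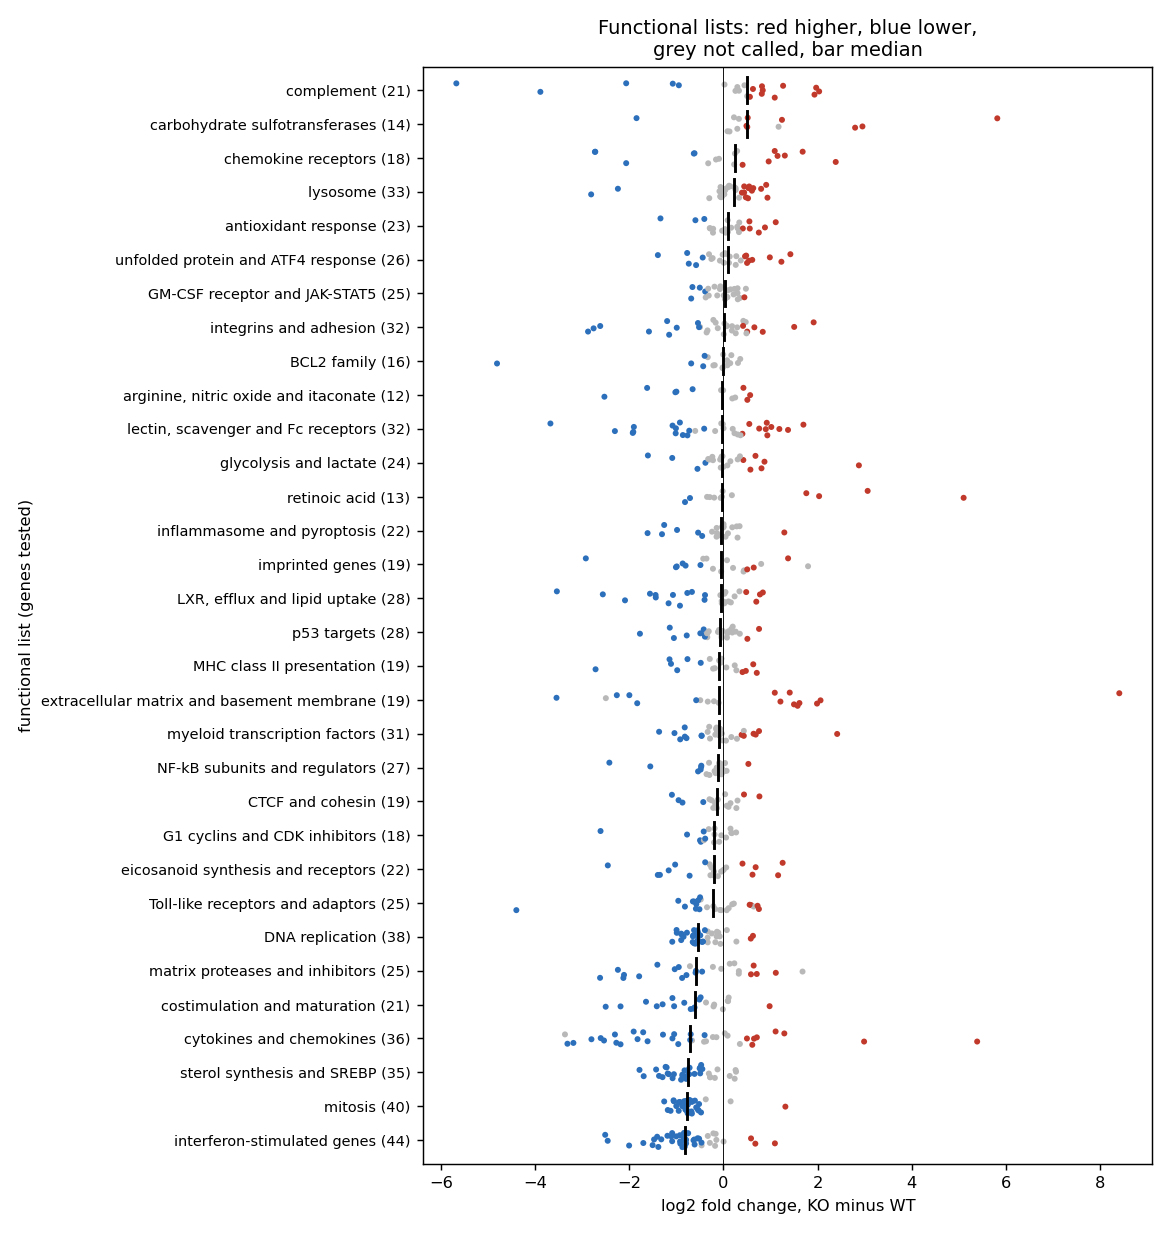
Log2 fold change of KO minus WT (x axis) of the tested genes of each functional list with at least 12 of them (y axis, number tested in brackets), red where upregulated, blue where downregulated and grey where not called, with a black bar at the median. Mitosis, sterol synthesis and interferon-stimulated genes lie to the left with medians of -0.76, -0.76 and -0.81, and complement, sulfotransferase and lysosome genes lean to the right.

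Genes of the inflammatory response fell more often than they rose. Of 36 cytokine and chemokine genes, 19 were downregulated and 8 upregulated (median -0.70). Tnf counted 2459 ± 4.07 in WT and 694 ± 29.0 in KO (log2 fold change -1.83), and the neutrophil attractants Cxcl3 (-3.31) and Cxcl2 (-2.61) and the IL-23 subunit Il23a (-3.19) fell further. Il1b, in contrast, rose from 1583 to 3878 counts (1.29), and Cxcl14 and Ccl24 rose most in the list. Of 25 genes of Toll-like receptors and their adaptors, 10 fell and 4 rose (median -0.21). Tlr1 counted 152, 179 and 165 in WT and 5.38, 5.76 and 12.04 in KO, while Tlr4 was not called. Of 27 NF-kB subunits and regulators, 6 fell (22.2%, compared with 17.2% of all genes) and 1 rose (median -0.11). Tab1, which activates the kinase TAK1, and the nuclear regulator Nfkbiz fell by 2.42 and 1.55 on the log2 scale, and the subunits Rela, Nfkb1 and Nfkb2 were not called. Of 22 inflammasome and pyroptosis genes, 6 fell and 1 rose (median -0.05), with Nlrp3 at -1.26 and Il1b as the gene that rose.

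Molecules through which dendritic cells address T cells were counted in a pair of lists. Of 21 costimulation and maturation genes, 13 fell and 1 rose (median -0.61). Cd200, Tnfsf9 (4-1BB ligand) and Pdcd1lg2 (PD-L2) fell by 2.502, 1.65 and 1.42 on the log2 scale, Cd40 and Ccr7 also fell, and Cd80 and Cd86 were not called. Fscn1, an actin bundler of mature dendritic cells, rose from 2521 to 4973 counts. Of 19 genes of MHC class II presentation, 6 fell and 4 rose (median -0.09), and the directions differed by role. The 6 that fell encode class II chains or the peptide exchange factor H2-DM, led by H2-Eb2 (-2.72), H2-Aa (-1.15) and H2-Eb1 (-1.11). The 4 that rose, Ifi30, Ctsl, Ctss and Lgmn, are a thiol reductase and proteases of the endosome, though Lgmn was under the fold cutoff without WT replicate 1 (0.32). The transactivator Ciita and the invariant chain Cd74 were not called.

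Lysosomal genes went the other way. Of 33 tested, 13 were upregulated and 2 downregulated, with a median of 0.23. Glb1 (beta-galactosidase, 0.93), the transcription factor Tfeb (0.91) and the membrane protein Lamp1 (0.80) rose most, and the abundant Ctsd rose from 36027 to 52618 counts. Gaa, acid alpha-glucosidase, fell from 408 to 58.0 counts, and Ctsk was the other gene that fell. Of 14 carbohydrate sulfotransferases, 7 rose and 1 fell (median 0.50), but only 4 rose on log2(TPM + 1). Ndst1, which modifies heparan sulfate, counted 415, 503 and 470.2 in WT and 3661, 3593 and 3499 in KO, and Chst1 rose by 2.80. Chst7 was the gene that fell (-1.85). Of 21 complement genes, 10 rose and 5 fell (median 0.50). C1s1, C1qa and C3ar1 rose by 1.93, 1.27 and 1.09, whereas C1ra, C1rl (-3.89) and the C5a receptor C5ar1 (-2.07) fell.

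Matrix genes divided by kind. Of 19 extracellular matrix and basement membrane genes that passed the filter, 9 rose and 5 fell (median -0.10), and on log2(TPM + 1) 5 rose and 3 fell. The 9 included the collagen IV chains Col4a1 and Col4a2, the laminin chains Lamc1, Lamb2 and Lama5, perlecan (Hspg2) and Nid1, all components of basement membranes. Lamc1 rose from 344 to 796 counts and Ecm1 from 370 to 1132, but Col4a1 (5.48 to 22.2), Hspg2 (8.96 to 24.05) and Lamb2 (10.7 to 30.5) stayed low. Spp1 (osteopontin) and Thbs1 (thrombospondin-1) fell by 1.83 and 2.00 on the log2 scale. Of 25 matrix proteases and inhibitors, 13 fell and 4 rose (median -0.58). Timp2, an inhibitor of matrix metalloproteinases, counted 698 in WT and 113 in KO, Mmp2 329 and 75.3, and Mmp12, the macrophage elastase, rose from 42525 to 69431. Of the 7 tested genes of caveolae, 1 rose, 3 fell and 3, Ehd1, Ehd4 and Pacsin2, were not called (median -0.30). Cavin1, a coat protein of caveolae, counted 44.1, 41.1 and 36.3 in WT and 1527, 1520 and 1553 in KO. Cav1 fell most, Cav2 fell by 0.61 on the log2 scale, and Ehd2 fell but was low (mean 9.44 in WT and 0.92 in KO).

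Receptors of the cell surface changed in both directions. Of 32 lectin, scavenger and Fc receptors, 13 fell and 10 rose (median -0.03). Siglec1, Cd209a (DC-SIGN family, -1.92) and Fcgr1 (-1.93) fell, and Fcgr4 (1.70), Clec12a (1.19) and Siglecf (1.02) rose. Of 18 chemokine receptors, 7 rose and 5 fell (median 0.24). Ccr2, the receptor for monocyte attractant CCL2, rose from 6563 to 16194 counts and Ccr9 from 21.8 to 114.5, whereas Cx3cr1 and Fpr1 fell by 2.72 and 2.73 on the log2 scale. Of 32 integrins and adhesion genes, 9 fell and 6 rose (median 0.01). Cdh1 (E-cadherin) fell from 257 to 35.0 counts, and Itgb3 (1.92) and Itgb8 (1.502) rose. Of 7 CD300 receptors, 3 fell and 2 rose (median -0.11), with Cd300lf falling by 1.05 on the log2 scale. Ccr2 and Cx3cr1, which moved in opposite directions, are both among the monocyte markers given above.

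Transcription factors of the myeloid lineage changed in both directions. Of 31, 8 fell (25.8%) and 6 rose (19.4%), with a median of -0.10, and Spi1 (PU.1), Irf8, Irf4, Zbtb46 and Id2 were not called. Egr1 and the repressor Bcl6 fell by 1.37 and 1.04 on the log2 scale. Cebpe, a factor of granulocyte development, counted 25.7, 18.5 and 32.0 in WT and 136, 129.6 and 141 in KO. Of 25 genes of the GM-CSF receptor and JAK-STAT5 pathway, 4 fell (16%) and 1 rose (4%), with a median of 0.03. The share that fell was near the 17.2% of all genes tested. Both receptor chains, Csf2ra (0.01) and Csf2rb (0.03), had log2 fold changes close to 0. Bcl2l1 (-0.69), Pim3 (-0.66) and the kinase Jak2 (-0.50) fell, and Lyn (0.44) rose. Of 16 BCL2 family genes, 4 fell and 0 rose (median -0.02), and Mcl1 and Bcl2l11 were not called.

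Metabolic and stress lists were mixed. Of 24 glycolysis and lactate genes, 6 rose and 4 fell (median -0.03), with the glucose transporter Slc2a3 rising from 40.1 to 294 counts and the regulator Pfkfb3 falling by 1.09 on the log2 scale. Of 23 antioxidant genes, 6 rose and 3 fell (median 0.09), led by Gstp1 (1.11) and Nqo1 (-1.34). Of 26 genes of the unfolded protein and ATF4 response, 8 rose and 5 fell (median 0.09), and the sensor Atf6 rose from 1136 to 2666 counts. Of 22 eicosanoid genes, 7 fell and 5 rose (median -0.20). Ptgs2 (COX-2) fell from 184 to 33.4 counts, and the leukotriene genes Ltc4s (-1.35) and Alox5 (-1.16) fell with it. Of 12 arginine, nitric oxide and itaconate genes, 5 fell and 3 rose (median -0.03). The arginine carrier Slc7a2 fell from 3967 to 687 counts and Acod1, which makes itaconate, from 5994 to 2952.

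Lists in which CTCF is best known as a regulator were small here. Of 43 imprinted genes, 19 passed the filter, and 6 of these fell and 3 rose (median -0.05). H19 and Igf2, the textbook pair controlled by CTCF, did not pass. Igf2r rose from 983 to 2546 counts, and Commd1 fell from 409 to 203. Of 36 Hox genes and cofactors, 5 passed the filter on low counts, of which Hoxb3 and Hoxb4 rose and the cofactor Pbx3 was among those that fell (median -0.08). Hoxb4 counted 70.0 in WT and 143 in KO. Of 13 retinoic acid genes, 4 rose and 2 fell (median -0.03). Aldh1a2, which makes retinoic acid, rose from 694 to 5799 counts, and the retinol carrier Rbp4 counted 2.76, 0.84 and 0 in WT and 50.2, 43.2 and 38.9 in KO.

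Expression level was linked to the size of the changes. Tested genes were divided by their mean normalized count over the 6 libraries, which depends on gene length as well as on abundance. Below 10 counts, the estimated change was at least 4-fold for 20.2% of 1012 genes, whether called or not. The share was 9.98% from 10 to 100, 2.46% from 100 to 1000, 0.805% from 1000 to 10000 and 0% of 144 genes at 10000 and over. The share called, with the smaller cutoff, did not follow this order and was 29.1%, 41.9%, 33.7%, 27.7% and 41.0% from the lowest to the highest class. Genes below 10 counts passed the filter partly through the group or treatment in which they were higher, so their shares are not those of all weakly expressed genes. Estimated folds also vary more through counting noise at low counts, and the part of this in the 4-fold shares was not tested. The balance of directions also changed with level. From 100 to 1000 counts, 1059 genes rose and 1209 fell, from 1000 to 10000 424 rose and 265 fell, and at 10000 and over 43 rose and 16 fell.

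Among the 10 genes with the highest mean TPM, 3 were called. Lyz2, the lysozyme of myeloid cells, took 2.23%, 2.40% and 2.49% of all counts in the WT libraries and 4.32%, 4.13% and 4.38% in the KO libraries (log2 fold change 0.95, SE 0.13, adjusted p = 3.4e-05). Tmsb4x, the actin-binding thymosin beta-4, fell from 101545 to 64635 counts (-0.65). The ferritin chains Ftl1 (-0.03) and Fth1 (0.33), mt-Co1 and mt-Atp8 were not called. The other 4 were Gm28661, Gm28437, Gm28438 and Gm10925, which are annotated as pseudogenes next to each other on chromosome 1. They resemble mitochondrial genes, so the division of reads with the mitochondrial genome is uncertain, and Gm28438 was the only gene of the 4 that was called (1.03). The 100 most abundant genes together took 24.18-24.96% of the counts in WT and 27.7-28.0% in KO, and the part of this in the lower TPM values of KO was not tested.

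Neighbouring genes tended to change in one direction. Of 13984 tested genes placed on the autosomes and sex chromosomes, adjacent pairs that did not overlap were both called in 1689 cases. In 1093 of these (64.7%, Wilson 95% interval 62.4% to 67.0%, for counting error only) the direction was shared, with 591 pairs upregulated and 502 downregulated. The share fell with every further place compared up to the fifth, from 61.7% for the next gene but one to 58.8% at 3 places and 55.0% at 5, and it was 49.3% to 51.8% at 20 to 100 places. By distance between starts, it was 78.0% (198 of 254 pairs) below 10 kb, 68.1% from 10 to 50 kb, 60.5% from 50 to 100 kb, 56.7% from 200 to 500 kb and 50.2% from 5 to 10 Mb. The correlation of log2 fold changes was 0.30 over 1983 pairs below 10 kb and 0.03 over 52914 pairs from 200 to 500 kb. These pairs share genes and, where copies are alike, reads. Divergent neighbours shared their direction in 66.2%, tandem neighbours in 65.3% and convergent neighbours in 60.8% of pairs. Among protein-coding genes alone the share at 1 place was 64.0%.

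**Figure D4:**
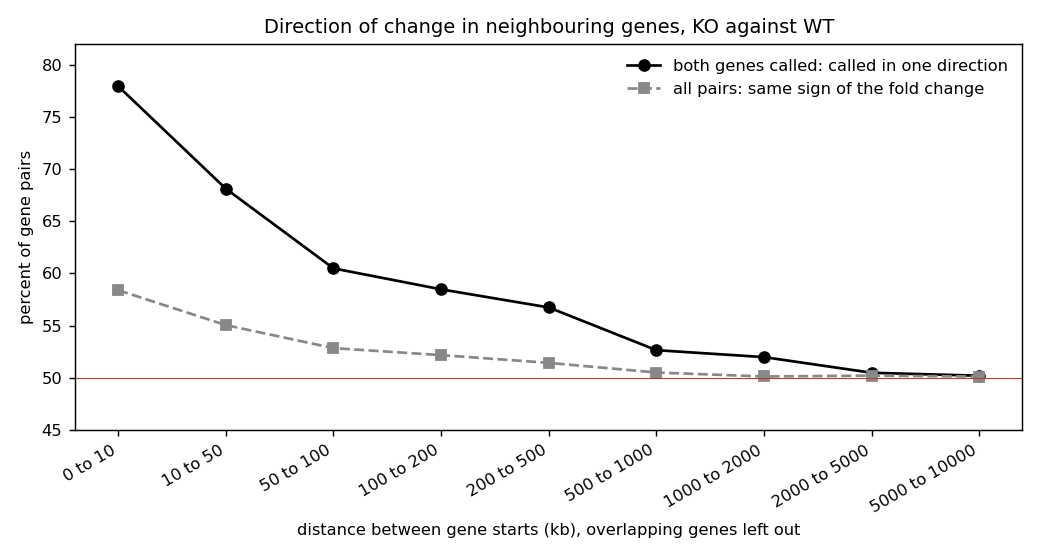
Percent of gene pairs (y axis) whose changes share a direction, by distance between gene starts in kb (x axis), for pairs with both genes called (black circles) and for the sign of the log2 fold change in all pairs (grey squares); the red line marks 50%. The share among called pairs falls from 78.0% below 10 kb to 50.2% at the farthest distances.

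Neighbours of strongly changed genes showed the same lean. Of 764 non-overlapping neighbours of genes that rose at least 4-fold, 32.7% were upregulated and 15.4% downregulated. Of 657 neighbours of genes that fell at least 4-fold, 14.5% were upregulated and 29.7% downregulated. Neighbours of all tested genes were upregulated in 17.7% and downregulated in 17.6% of cases. Most neighbours of a strongly changed gene were therefore either not called or changed the opposite way.

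Runs of at least 5 consecutive tested genes called in a single direction numbered 27 among upregulated genes (154 genes) and 15 among downregulated genes (79 genes). Overlapping genes were kept here, unlike in the pairs above. Protein-coding genes alone gave 18 upregulated runs (101 genes) and 11 downregulated runs (58 genes). Members need not lie close together, and the downregulated run from Dmd to Pola1 on chromosome X spanned 10683 kb. The longest run among all tested genes was 9 upregulated genes on chromosome 7 from 3711409 to 4063204. It held the paired immunoglobulin-like receptors Pirb and Pira2 with Lilra6, Lair1 and predicted genes, and log2 fold changes ran from 0.41 to 2.80. Lair1 was under the fold cutoff without WT replicate 2 or 3. Many of these are near-identical copies whose reads may be divided. On chromosome 11 from 74849261 to 75267769, 8 genes rose, Sgsm2, Tsr1, Smg6, Srr, Hic1, Ovca2, Dph1 and Rtn4rl1, which are unrelated in function, with log2 fold changes from 0.42 to 4.84, of which Tsr1 was under the fold cutoff without WT replicate 2 or 3. Another run of 8 on chromosome 9 held Sacm1l, the amino acid transporters Slc6a20a and Slc6a20b and the gut-homing receptor Ccr9, but Sacm1l was not called without WT replicate 1, 2 or 3 (adjusted p 0.051 to 0.064). A run of 7 on chromosome 2, from Wdr34 over Set and Zer1 to Endog, was even in size, with log2 fold changes from 0.71 to 1.06, but Endog was not called without WT replicate 2 or 3 or KO replicate 1, nor Wdr34 without WT replicate 1. A run of 8 on chromosome 6 held the lectin-like genes Clec2i, Clec2g, Clec2f and Klrb1f, and one of 5 nearby Cd69, Clec12a, Clec1b and Clec9a.

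Several downregulated runs held members of gene families. On chromosome 5, 6 Oas genes fell together with Rasal1. Also on chromosome 5, the chemokine genes Ppbp, Pf4, Cxcl3, Cxcl1 and Cxcl2 formed a run, with log2 fold changes from -3.31 to -0.96. Cxcl2 counted 4472 in WT and 734 in KO and Ppbp 335 and 58.2, and Pf4 and Ppbp are also the megakaryocyte markers that fell above. On chromosome 17 a run held H2-Ab1, H2-Aa, H2-Eb1 and H2-Eb2 with Gm20513, and on chromosome 1 the interferon-inducible genes Ifi204, Ifi211, Mndal and Ifi203. The signal-regulatory protein genes Sirpb1a, Sirpb1b and Sirpb1c on chromosome 3 fell with log2 fold changes of -1.16, -1.48 and -1.25, together with their neighbours. Other downregulated runs mixed functions, such as Acvrl1, Acvr1b, Grasp and Nr4a1 on chromosome 15 and Rfwd3, Mlkl, Wdr59, Znrf1 and Ldhd on chromosome 8. In these runs Ifi203 kept its call only without WT replicate 2, Gm20513 without WT replicate 2 or KO replicate 1, and Ldhd without WT replicate 1 or 2 or KO replicate 3, while Rfwd3 was under the fold cutoff without KO replicate 2.

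How far a strong change reached was followed within 500 kb of 5 genes. Around Aldh1a2, 2 of 4 other tested genes rose and 0 fell. These were the antisense gene Gm32511, which counted 2.76, 9.22 and 4.32 in WT and 24.2, 30.7 and 22.2 in KO, and Aqp9, a water and glycerol channel (0.68, SE 0.14). Both start within 52.0 kb upstream. Around Chst3, 4 of 8 rose and 0 fell. Spock2, a secreted proteoglycan, started 113 kb downstream and counted 0, 0.84 and 1.73 in WT and 32.3, 22.1 and 23.2 in KO, whereas Psap, the precursor of the saposins, on the other side was already abundant and rose by 0.68. Anapc16 rose by 0.50. Cdh23 was called at 0.65 (adjusted p = 0.029), but not after 5 of the 6 libraries were left out in turn, all except KO replicate 1.

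Around Nid1, only Gpr137b of 5 genes rose (0.42, SE 0.06; 0.38 and under the fold cutoff without WT replicate 3), and Lyst, 153 kb downstream, was not called. Around Lhx2, none of Dennd1a, Nek6 and Psmb7 was called, so Lhx2 was the only gene called among those tested there. Around Cav1, Cav2 and the receptor tyrosine kinase Met fell and the transcription factor Tfec rose, with Tes, Capza2 and St7 not called. Cav2 counted 1529, 1437 and 1505 in WT and 1009, 903 and 1008 in KO (-0.61, SE 0.18, adjusted p = 0.014). Without KO replicate 2 the adjusted p of Cav2 was 0.058. Met fell from 1616 ± 89.2 to 884 ± 16.04 (-0.87, SE 0.13). Cav2 and Cav1 start 25.1 kb apart, yet KO retained 65.3% of the WT mean of Cav2 and 1.73% of that of Cav1.

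**Figure D5:**
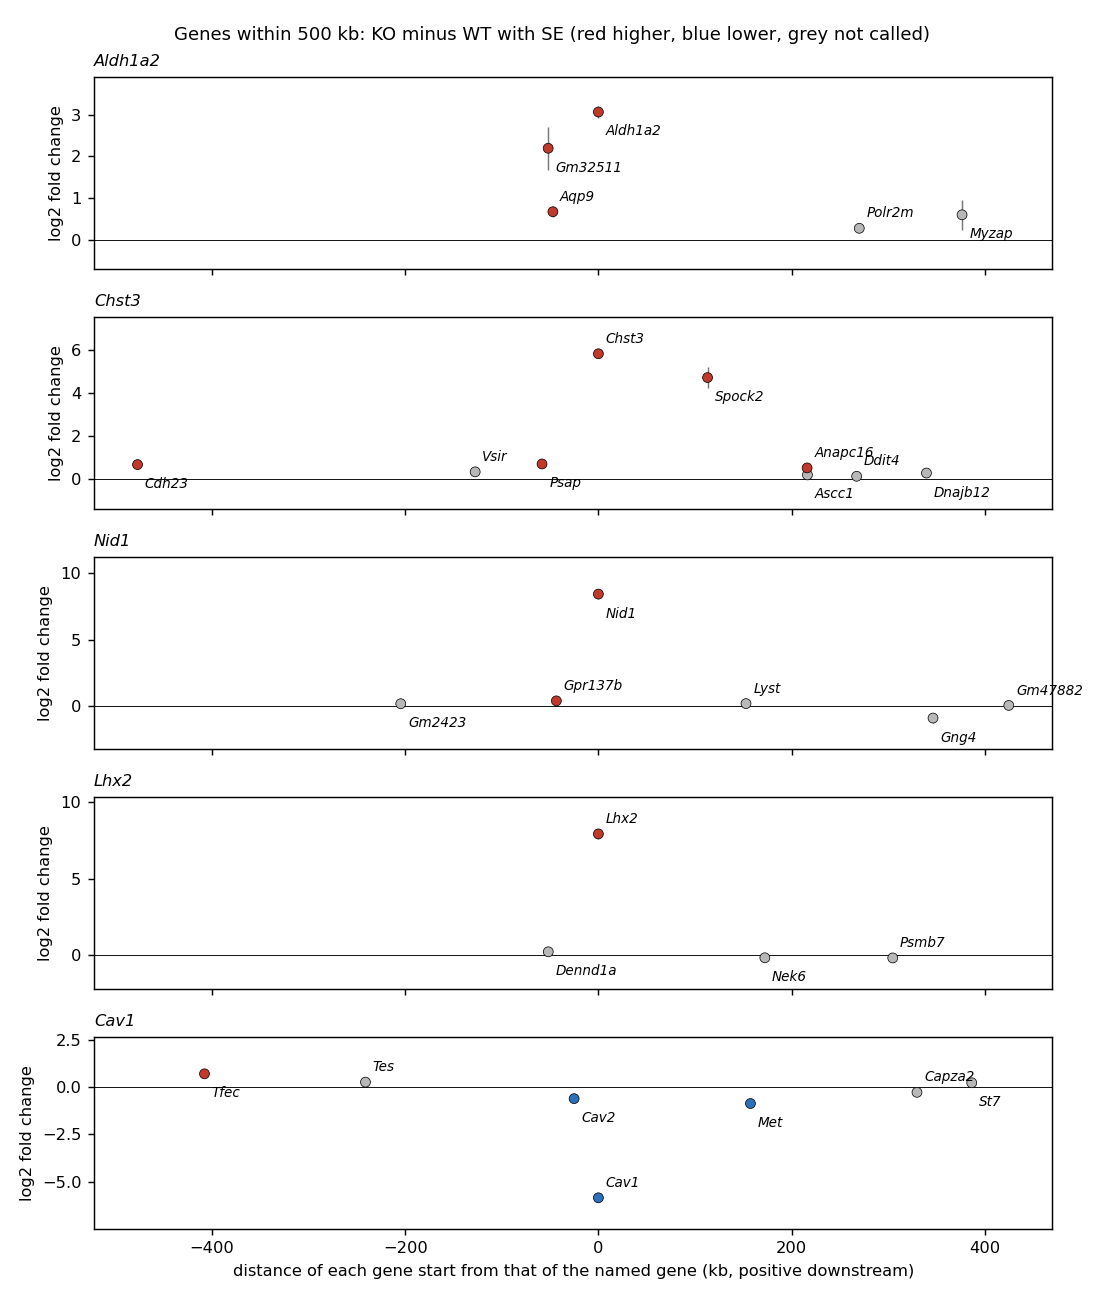
Log2 fold change of KO minus WT with its standard error (y axis) of the tested genes within 500 kb of Aldh1a2, Chst3, Nid1, Lhx2 and Cav1 (1 panel each), placed by the distance of their starts in kb (x axis, positive downstream). Red genes rose, blue fell and grey were not called; in each panel the named gene has the largest change, with Spock2 (4.71) next beside Chst3 and Gm32511 (2.20) next beside Aldh1a2.

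The 6 LPS-stimulated libraries, which share no sample with those compared here, gave a reading of direction in other libraries. They were filtered, scaled and fitted together with the unstimulated libraries. Whether they came from the same mice or cultures is not given in the sources used here, so a difference between those would recur. In KOL against WTL, 2406 genes (17.2%) were upregulated and 2466 (17.6%) downregulated at the same cutoffs. Of the 2427 genes that rose without LPS, 1433 (59.0%) were also called higher with LPS and 38 were called lower. Of the 2405 that fell, 1448 (60.2%) were called lower and 68 higher. Of genes that changed at least 4-fold, 333 of 384 rises (86.7%) and 263 of 329 falls (79.9%) were called the same way. All 24 genes of the largest rises and falls were among these. Their median sizes cannot be compared fairly, since the genes were chosen for a large change without LPS.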

How the data were processed

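RNA-seq was carried out on CD11c+ BMDCs, 3 WT and 3 KO without LPS and 3 of each with it. Reads had been aligned to mm10 with STAR 2.5.1 and quantified with RSEM, per the labels. For 55335 genes in each library the authors deposited the expected count (an estimated count in which multi-mapping reads are divided), the TPM and the FPKM, of which the FPKM was not used. The labels name rRNA depletion and the methods poly(A) selection with a stranded kit. Whether RSEM used the strand is not given in the sources used here, so overlapping and antisense genes are uncertain.

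Expected counts were rounded, filtered with filterByExpr (14008 genes) and scaled by TMM in edgeR 4.0.16 (R 4.3.3). The quasi-likelihood test was fitted to all 12 libraries together, with no covariates and Benjamini-Hochberg adjustment over all genes. This fit pools the spread of all groups, although their biological coefficients of variation differed. They were 4.92% in WT, 2.62% in KO, 13.7% in WTL and 14.4% in KOL. Standard errors and adjusted p values of KO against WT therefore also carry the spread of the LPS-stimulated libraries. A gene was called at an adjusted p under 0.05 and a fold change above 1.3. Normalized counts are counts per effective library size times its mean over the 12 libraries, and standard errors derive from the F statistic. The floor was set at 3 counts per library, also for the bounds on folds. Intervals and floors cover counting error only. On simulated counts edgeR recovered 173 of 197 changed genes (87.8%) in KO against WT, with 8 false calls among 13159 genes. The simulation changed only 200 genes, drawn from those without low mean counts, whereas 34.5% of genes were called in the data. These rates therefore need not hold for the data, least of all for genes near the floor.

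Genes were ordered by start in GENCODE M21 (mm10). Named genes were Ctcf, up to 3 called genes per list and direction by size with at least 50 normalized counts, the 12 largest rises and the 12 largest falls of protein-coding genes with at least 100, the 10 highest in TPM, genes within 500 kb of Aldh1a2, Chst3, Nid1, Lhx2 and Cav1, and members of runs of 5 or more called genes. Xist, Flt3l, Rpl24, Rpl7a, the Y-linked genes, uncalled list members and further list members given for their roles were added after their values were seen. Members, lists and loci were chosen with earlier results of these data known, so counts over a list are descriptions. Some list members are counted but not reported here by name. Replicate numbers did not pair the libraries (correlations of same-numbered deviations -0.037, -0.038 and 0.008). Alternatives used DESeq2 1.42.0 and limma 3.58.1.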

Additional observations from a re-analysis of the deposited data

Results flagged for a closer look

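For 17 of the 24 genes with the largest rises and falls, the change in KO differed between unstimulated and LPS-stimulated cultures by the interaction term of the same edgeR fit (adjusted p under 0.05). Values are KOL minus WTL less KO minus WT on the log2 scale. Among the rises the difference was -5.17 for Lhx2, -3.55 for Chst3, -1.63 for Scn4b, -1.48 for Sel1l3 and -1.3 for Arhgef17. Among the falls it was 2.11 for Cav1, 1.94 for Siglec1, 1.65 for Hsd3b7, 1.62 for Fam199x, 1.51 for Marco, 1.47 for C1ra, 1.44 for Rex1bd, 1.36 for Tstd3, 1.31 for Rbm45, 1.19 for Dhrs4, 1.11 for Agap2 and 0.877 for Flrt3. All 17 changes were smaller with LPS than without it and kept their direction. The genes had been chosen for their size without LPS, so a smaller change in other libraries is no finding by itself. The interaction term includes the values used for that choice, so the count of 17 is no finding either. The share of all tested genes that passed the same cutoff is not given here. Lhx2 had the lowest adjusted p after Chst3 (6.1e-06 and 4.9e-06). WTL libraries averaged 67.0 ± 9.74 counts of Lhx2 (SD, n = 3), compared with 0.87 ± 0.84 in WT, and KOL libraries 449 ± 67.4. Since all WT libraries of Lhx2 held at most 3 counts, the size of its difference is uncertain. The difference for Ctcf itself was 0.28 (adjusted p = 0.098).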

How the results depend on the processing

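Under the alternatives, 2277 to 2631 genes were upregulated and 2251 to 2544 downregulated except as follows. With limma, 1556 genes rose on log2(TPM + 1) and 1498 on log2(TPM + 0.1), and edgeR's glmTreat, which tests against the fold cutoff, called 1574 up and 1495 down. A minimum of 10 counts in every unstimulated library gave 2038 and 2051, and no fold cutoff 3110 and 3131. Leaving out each library gave 2047 to 2263 genes up and 2172 to 2438 down. Ctcf fell by 0.65 to 0.89 on the log2 scale (by 0.83 to 0.93 with a library left out). The replicate block gave 2357 genes up and 2339 down and ended the call of none of the 288 named genes, whereas each DESeq2 fit ended 3, no filter 2, limma 10 and 12 and glmTreat 24. The share of adjacent pairs in one direction was 69.11% and 68.76% with DESeq2 on 12 and 6 libraries, 67.71% without the filter, 67.01% and 67.33% with limma, and 67.05% with overlapping pairs kept. It was 62.67% to 65.97% in the others, 64.36% to 65.8% with a library left out. By TPM, 17.74% of the lowest class, called or not, changed at least 4-fold. None of the named genes reversed. With a library left out, 15 lost their call at least once (Gm20513, Ifi203, Sacm1l, Wdr34, Endog, Lair1, Tsr1, Ldhd and Rfwd3 in runs, and Cdh23, Cav2, Smc3, Lgmn, Gpr137b and Xist), and Top2a and Ccnc gained one. The cause was not tested. Depth limits genes near the floor, where 3 counts correspond to 2.52 to 2.88 normalized counts.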

Other observations

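All 6 libraries carried Xist, the RNA that coats the inactive X chromosome, and none held a count of the Y-linked genes Ddx3y, Eif2s3y, Kdm5d or Uty, although mice of both sexes are described. Xist counted 16275, 15371 and 16454 in WT and 24501, 25378 and 25344 in KO (log2 fold change 0.65, SE 0.21, adjusted p = 0.023 from edgeR on 12 libraries). This call was lost after any library other than KO replicate 1 was left out (log2 fold change 0.58 to 0.64, adjusted p 0.058 to 0.087) and with DESeq2 on 12 libraries (0.067), whereas edgeR on the 6 unstimulated libraries alone made the call. On the X chromosome 13.1% of 412 tested genes were upregulated and 22.1% downregulated, with a median log2 fold change of -0.11, and on chromosome 6 the shares were 23.6% and 17.5% of 725 genes.

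Rpl7a-ps11, a pseudogene, counted 251 and 274 in WT replicates 1 and 2, 0.86 in WT replicate 3 and 0 in every KO library, while its parent gene Rpl7a counted 7421, 8358 and 7735 in WT and 7389, 7002 and 7085 in KO. Mitochondrial genes took 2.67-3.13% of the counts in WT and 3.55-3.62% in KO, and ribosomal RNA genes 0.383-0.537% and 0.579-0.641%. Flt3l, the growth factor of dendritic cell progenitors, counted 41.3, 57.0 and 55.3 in WT and 4.49, 7.68 and 6.48 in KO (log2 fold change -3.03) and was chosen after its values were seen. Its receptor Flt3, a dendritic cell marker, fell from 131 to 32.5 counts. Pdgfrb, a stromal marker, rose from 28.1 to 249.8 counts, whereas Col1a2 and Col3a1 were at the floor in both groups.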
